A study of Homo sapiens and Mus musculus with 20 samples.

Results

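The genes of 9 HLA class II chains and of CD74 were examined in the lists of enriched regions from 16 chromatin immunoprecipitation libraries of human myeloma cells. The 10 genes were chosen by name, and their members were all listed regions that overlapped a gene body or the 10 kb on either side of it (GRCh38). They numbered 38 of the 805893 regions in all 16 lists, and 37 without the input libraries. The labels give ARP1, a line of multiple myeloma, in 3 KDM6A genotypes: wild type (WT), knock out (KO) and JmjD-dead, whose titles carry H1146E. H3K27ac, H3K27me3 and input DNA came from all 3 genotypes, and H3K4me1 from WT and KO. KDM6A was precipitated from ARP1 WT, ARP1 KO and KARPAS, a second line labelled multiple myeloma with KDM6A wild type. An HA antibody was used on ARP1 labelled WT, which serves as the untagged background, and on ARP1 titled HA-tagged, with the genotype given as knock out. The labels do not say whether a mutant line was 1 clone, or how the HA-tagged protein was introduced. With 1 library a group nothing could be checked against replicates, and all values describe these libraries alone.

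Class II molecules are pairs of an alpha and a beta chain (HLA-DR, HLA-DQ and HLA-DP) that show peptides from the endosomal route to CD4+ T cells. CD74, the invariant chain, fills the groove of new molecules and guides them to the endosome, where HLA-DM exchanges the remnant of CD74 for a peptide and HLA-DO restrains HLA-DM. B cells and other antigen-presenting cells express these genes together under the transactivator CIITA, and most plasma cells, the normal counterpart of myeloma, have shut them off. KDM6A removes methyl groups from H3K27, and it travels with the enzymes that place H3K4me1 at enhancers.

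The 9 HLA genes lie on chromosome 6 within 650.0 kb, from HLA-DRA at 32439887 to 32445046 to HLA-DPB1 at 33075990 to 33089696. HLA-DRB1 lies at 32578775 to 32589848, HLA-DQA1 at 32637406 to 32655272 and HLA-DQB1 at 32659467 to 32666657. HLA-DOB lies at 32812763 to 32817002, HLA-DMB at 32934636 to 32941028, HLA-DMA at 32948618 to 32953097 and HLA-DPA1 at 33064569 to 33080748. CD74 lies on chromosome 5 at 150401639 to 150412910. Because neighbouring windows meet, the 10 genes form 7 loci, and 16 of the 38 regions lay in more than 1 window. HLA-DQA1 shares its locus with HLA-DQB1, HLA-DMA with HLA-DMB, and HLA-DPA1 with HLA-DPB1. The windows of HLA-DOB and CD74 also hold parts of TAP2 and TCOF1. The gene table gives gene limits only, so whether a region lay on an exon or an intron was not examined.

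Class II promoters are known for an X box, bound by the RFX complex, and a Y box, bound by NF-Y. RefSeq promoter sequences (GRCh38.p14, 250 bases before to 50 after the start site) were matched for 9 of the 10 genes. The exception was HLA-DRA. The 250 bases before the start sites of CD74, HLA-DMB and HLA-DMA are shown because the widest overlaps of listed regions with promoter entries fell on these genes. A narrower one, of 15 bp, fell on HLA-DPB1. All 3 genes are on the minus strand, at chr5:150412911-150413160, chr6:32941029-32941278 and chr6:32953098-32953347. Capitals mark matches on either strand to an X box core (AG, any 2 bases, AC, any base, GATG), a Y box core (ATTGG) or a cyclic AMP response element core (TGACG).
CD74: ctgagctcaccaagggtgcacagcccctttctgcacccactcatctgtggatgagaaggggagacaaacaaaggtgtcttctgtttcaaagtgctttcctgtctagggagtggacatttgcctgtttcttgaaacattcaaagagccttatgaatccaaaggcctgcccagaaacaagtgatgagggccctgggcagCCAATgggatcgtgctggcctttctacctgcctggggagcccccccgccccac
HLA-DMB: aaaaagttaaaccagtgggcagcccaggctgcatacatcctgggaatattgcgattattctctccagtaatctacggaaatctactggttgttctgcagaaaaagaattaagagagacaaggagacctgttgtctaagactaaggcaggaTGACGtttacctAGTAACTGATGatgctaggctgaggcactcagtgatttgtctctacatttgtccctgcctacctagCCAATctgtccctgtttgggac
HLA-DMA: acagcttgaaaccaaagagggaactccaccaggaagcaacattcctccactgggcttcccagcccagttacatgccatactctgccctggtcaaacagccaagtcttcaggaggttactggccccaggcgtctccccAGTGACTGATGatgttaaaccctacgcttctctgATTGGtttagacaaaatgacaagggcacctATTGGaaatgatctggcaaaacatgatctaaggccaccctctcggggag
HLA-DMB and HLA-DMA carry the X box core and a Y box core, and CD74 a Y box core alone. Over whole promoter entries, the X box core stood in 4 of the 9 matched genes, HLA-DRB1, HLA-DQB1, HLA-DMA and HLA-DMB, and in 0.687% of 22140 promoters of protein-coding genes. A Y box core stood in 8 of the 9, against 34.6% of promoters, and both cores stood in 4 of the 9, against 0.257%. The TGACG core stood in 5 of the 9, against 27.9%. No matches to different motifs overlapped in these promoters. A match describes the letters and is not a measured binding site.

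After the authors' filtering the H3K27ac libraries held 25568819 to 31171803 fragments, the H3K27me3 libraries 5026016 to 10449019 and the H3K4me1 libraries 25570686 and 34023091. The HA and KDM6A libraries held 11898708 to 37389280 tags, the fewest in ARP1 WT KDM6A and the most in KARPAS. The inputs held far fewer, with 222942 (JmjD-dead), 383824 (WT) and 724630 (KO) fragments, so they are a thin background. The lists held 11865 to 95729 regions apart from the inputs. The KDM6A list of KO cells, the background of that antibody, still held 44936. The plasma cell label was checked against markers. In ARP1 WT all 7 plasma cell markers, among them SDC1, TNFRSF17 and IRF4, held an H3K27ac region in the gene or within 10 kb. Regions covered 120223 to 127608 bp over these markers in the 3 genotypes. The B cell markers MS4A1, CD79B and CD22 held none in any ARP1 genotype, and PAX5 and CD79A held the mark in WT. Of 4 T cell markers 3, of 4 monocyte and dendritic cell markers 3 and of 5 epithelial and stromal markers 2 held H3K27ac in WT. Of all genes 74.3% held an H3K27ac region in WT, so the presence of the mark at these markers does not settle the cell type. KARPAS KDM6A regions lay at all 7 plasma cell markers and at MS4A1, PAX5, CD79A, CD79B and CD22, of which ARP1 WT KDM6A regions lay at MS4A1 and CD79A. They also lay at all 4 T cell markers, 3 of 4 monocyte and dendritic cell markers and 2 of 5 epithelial and stromal markers. Of all genes 54.9% held a KARPAS KDM6A region, so these counts alone do not set a cell type apart.

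In ARP1 cells the class II genes were nearly bare of the active mark H3K27ac. A region was listed at 1 of the 10 genes in WT and JmjD-dead cells alike and at 2 in KO, where 74.3%, 74.6% and 76.5% of all 19974 protein-coding genes held one. The class II genes are shorter than most, with a longest body of 17867 bp against a median of 24170 bp over all genes. Among the 8436 genes no longer than 17867 bp the shares were 64.7%, 64.9% and 66.6%. H3K4me1, the enhancer mark, was listed at 4 of the 10 in WT and 6 in KO (78.1% and 60.1% of all genes, 68.6% and 56.9% of the short ones). H3K27me3, the repressive mark, was listed at 3 genes in JmjD-dead cells, 2 in WT and 1 in KO (44.7%, 31.2% and 22.9%, or 40.0%, 25.8% and 22.4% of the short genes). In WT it was also listed at 5 of the 7 plasma cell markers, all 7 of which held H3K27ac. A listed H3K27me3 region thus did not exclude H3K27ac in the same window. Whether the 2 marks coincided at these markers, and whether the genes were expressed, was not examined. The plot of regions by gene and list shows how few they were and how weak most of them ranked.

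**Figure D1:**
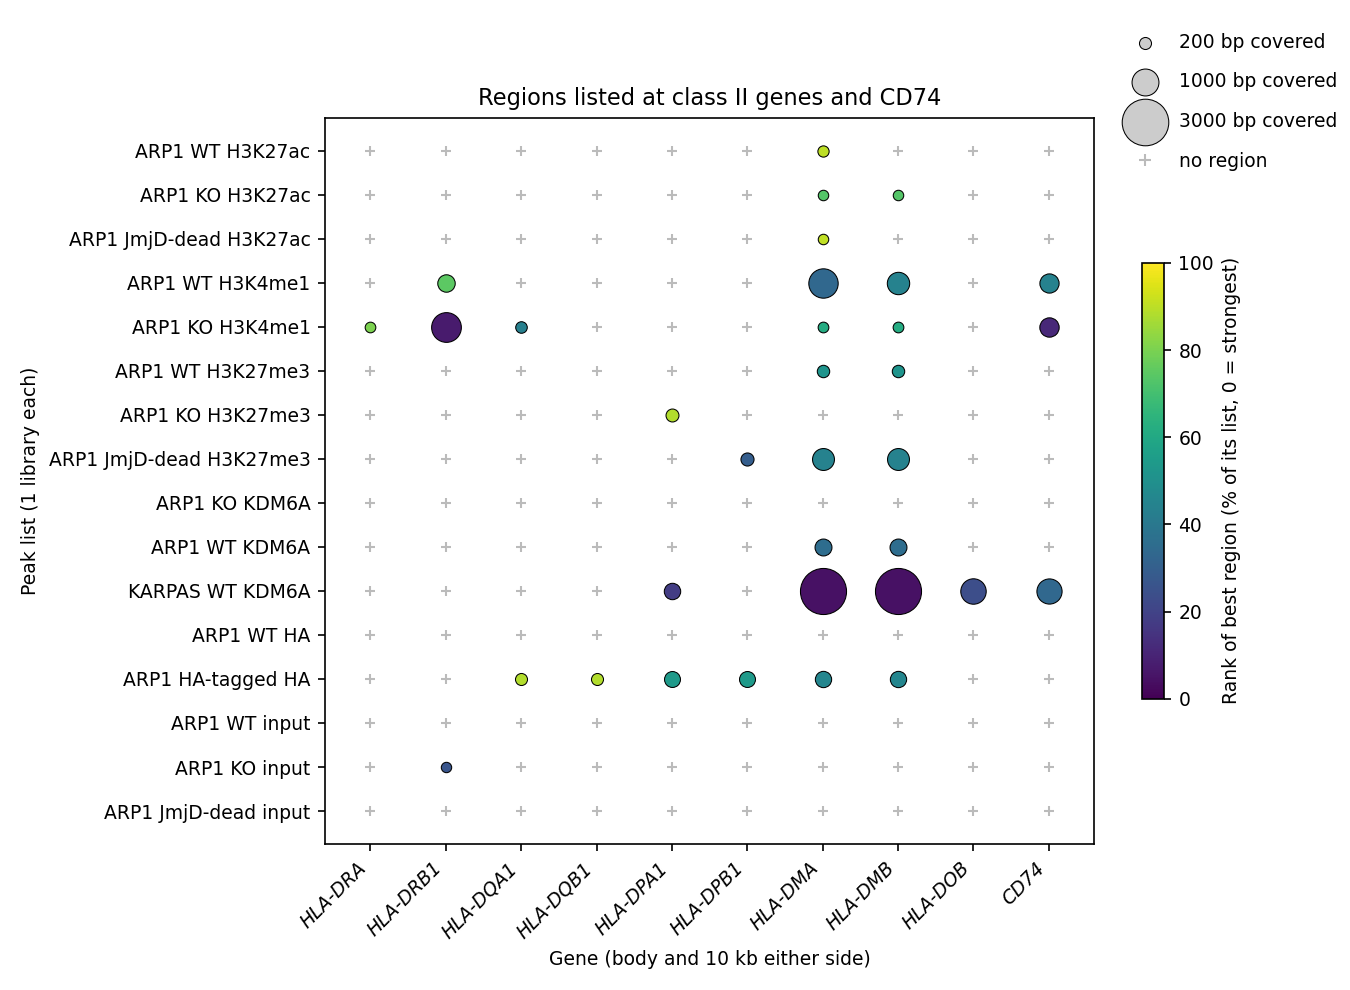
Each circle marks a gene (x axis) with at least 1 region in a peak list (y axis, 1 library each). Its area gives the base pairs covered in the gene and 10 kb either side, its colour the rank of the best region as a percentage of its list (0 is strongest), and a cross means no region. HLA-DMA and HLA-DMB fill the most rows, and the largest circles are those of KARPAS KDM6A at these genes (2937 bp).

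KDM6A antibody regions were listed at 0 of the 10 genes in ARP1 KO, 2 in ARP1 WT and 5 in KARPAS. Over all genes the shares were 14.0%, 36.8% and 54.9%, and over the short genes 8.89%, 20.2% and 42.2%. HA regions were listed at 0 of the 10 in the untagged line and 6 in the HA-tagged line (35.6% and 44.0% of all genes, 31.0% and 31.6% of the short ones). Among the antibodies the gap to the background share was widest for H3K27ac. Of the 3 inputs, the KO input listed a region at 1 gene, HLA-DRB1 (22.1% of all genes, 13.0% of the short ones). The WT and JmjD-dead inputs listed none (10.6% and 6.85% of all genes, 5.43% and 3.11% of the short ones).

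**Figure D2:**
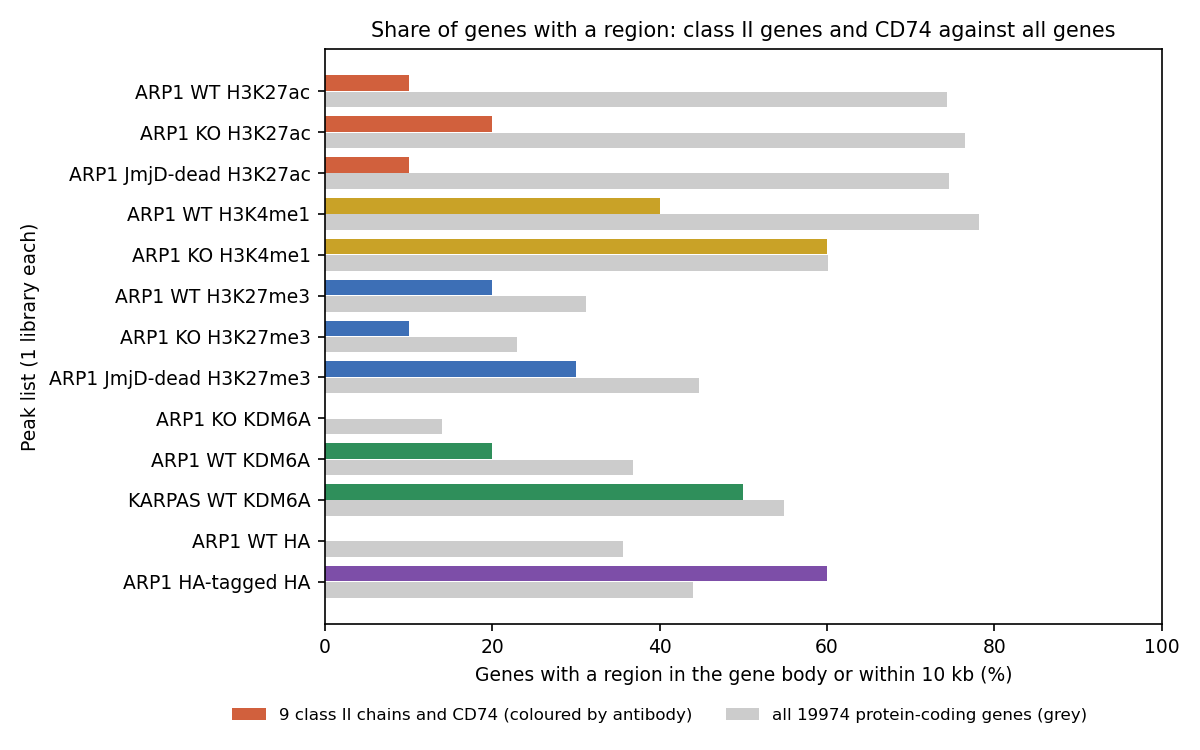
Bars give the percentage of genes with at least 1 region in the gene body or within 10 kb, for the 10 genes (coloured) and for all 19974 protein-coding genes (grey), in each of 13 lists of 1 library. The coloured H3K27ac bars are at 10 or 20%, far short of the grey bars at 74.3 to 76.5%.

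Each region carries the caller's −log10 q, which is larger for a stronger region, and was ranked in its own list from 1 for the strongest. Of the 37 regions outside the inputs, 19 ranked in the weaker part of their list, past its middle, and 24 had a −log10 q under 5. Only 3 ranked in the top 10% of their list, 2 of them in KARPAS, both between HLA-DMB and HLA-DMA. The third was an H3K4me1 region of KO cells near HLA-DRB1. The regions were 105 to 1057 bp long, with a median of 237 bp. The farthest region inside a window lay 8172 bp from HLA-DMA (KARPAS KDM6A), and the nearest outside stood 11006 bp from CD74 (H3K4me1, KO).

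The DR, DQ and DP chains, which form the peptide-presenting molecules at the cell surface, held no H3K27ac region in any ARP1 genotype. The distance from HLA-DRA to the nearest H3K27ac region was 41.9 kb in WT and 41.7 kb in both mutants. For HLA-DRB1, HLA-DQA1 and HLA-DQB1 it was 170.0 to 182.0 kb in the 3 lists, and for HLA-DPA1 and HLA-DPB1 71.3 to 80.5 kb. In all 3 genotypes these genes thus stood in stretches without the mark. HLA-DRB1 and the DQ genes have close copies nearby (HLA-DRB5, HLA-DQA2, HLA-DQB2) and vary strongly between people, so reads can be lost or shared there and their values are uncertain. The part this plays in the empty stretches was not tested.

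HLA-DRA, the invariant alpha chain of HLA-DR, had 1 region in all 13 lists, of H3K4me1 in KO cells. It lay at 32437151 to 32437307 with a −log10 q of 1.51 and rank 64988 of 80845, so it stood near the bottom of that list. HLA-DRB1, the main DR beta chain, had no region in any H3K27ac, H3K27me3, KDM6A or HA list. H3K4me1 covered 421 bp at HLA-DRB1 in WT and 1223 bp in KO. The best KO region, at 32594832 to 32595800, lay 4984 bp before the start site and ranked 5799 of 80845 (−log10 q 8.51). The WT regions at the same place, 32595243 to 32595347 and 32595491 to 32595806, had best rank 71536 of 95729. The KO region also overlapped the 149 bp KO input region, which is in the same window. Without regions on input, what was left at HLA-DRB1 in KO was a region of 254 bp inside the gene, at 32587643 to 32587896 (−log10 q 1.51), which is less than the 421 bp in WT.

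HLA-DQA1 and HLA-DQB1, the DQ alpha and beta chains, held no H3K27ac, H3K27me3 or KDM6A region. A single H3K4me1 region lay in HLA-DQA1 in KO cells, at 32642461 to 32642645 (−log10 q 2.93). A single HA region of the tagged line, at 32659898 to 32660097 inside HLA-DQB1, fell in both windows and ranked 48043 of 54338. HLA-DPA1 and HLA-DPB1 held an HA region of the tagged line at 33075403 to 33075754, which ended 236 bp before the HLA-DPB1 start site, inside HLA-DPA1, whose transcription runs the other way. It had a −log10 q of 4.52 and rank 29392 of 54338, and reached 15 bp into the HLA-DPB1 promoter entry. H3K27me3 stood past the gene ends only. In KO cells 232 bp were covered at 33060475 to 33060706 beyond HLA-DPA1, and in JmjD-dead cells 237 bp at 33092198 to 33092434 beyond HLA-DPB1. WT had none at either gene. In KARPAS a KDM6A region at 33061889 to 33062260, also beyond the end of HLA-DPA1, ranked 9814 of 55867 (−log10 q 23.8).

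HLA-DM is the peptide editor of the pathway, and its 2 genes held 18 of the 37 regions, in 10 of 13 lists. H3K27ac at HLA-DMA was faint in all 3 genotypes. In WT it was at 32952858 to 32953032, 65 bp inside the gene from its start site, with a −log10 q of 2.41 and rank 62244 of 69127. In JmjD-dead cells it was at 32952881 to 32953032 with a −log10 q of 2.69 and rank 66990 of 74063. In KO cells no region stood there, and a region of similar strength lay between the genes at 32944124 to 32944275 (−log10 q 2.95, rank 55703 of 76242). It was in the windows of both HLA-DMA and HLA-DMB. By windows HLA-DMA therefore kept its mark and HLA-DMB gained one in KO, where 14.3% of genes without a WT region gained one and 1.98% of those with one lost it. In JmjD-dead cells none of the 10 genes gained or lost H3K27ac (8.28% and 2.45% of all genes). No gene of the 10 had the 500 bp of H3K27ac asked for a 2-fold call. Of all genes that did, 6.78% were higher and 3.33% lower in KO, and 3.08% were higher and 3.35% lower in JmjD-dead cells. With a −log10 q of at least 5, no class II gene held H3K27ac in any genotype.

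H3K4me1 at HLA-DM was broader in WT than in KO. In WT 5 regions covered 1192 bp at HLA-DMA and 3 of them 692 bp at HLA-DMB. The strongest, at 32953165 to 32953491 (−log10 q 7.2, rank 31916 of 95729), overlapped 183 bp of the HLA-DMA promoter stretch printed above, and another, at 32940670 to 32941105, overlapped 127 bp of the HLA-DMB promoter entry, part of it past the start site and not printed. A pair of regions stood between the genes. In KO 1 region remained in either window, 159 bp long at 32941509 to 32941667 (−log10 q 2.18). The WT regions did not overlap it. The KO list was also thin at active neighbours. Summed over the windows of TAP1, TAP2, PSMB8, PSMB9 and BRD2, H3K4me1 covered 44876 bp in WT and 4512 bp in KO. All 5 of these genes held H3K27ac in both genotypes. Over the genome the H3K4me1 list covered 71.8 Mb in WT and 37.9 Mb in KO. The KO values at the class II genes and CD74 thus cannot be told apart from a weaker library, which was not tested.

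Counted over the group, H3K4me1 was at least 2-fold lower in KO at HLA-DMA and HLA-DMB, at least 2-fold higher at HLA-DRB1, and level at CD74 (511 bp in WT, 518 bp in KO). These were the 4 genes with at least 500 bp in either list. Without regions on input the HLA-DRB1 call ended and its direction turned (254 bp in KO, 421 bp in WT). The turn rests on 1 input region, of 149 bp and a pileup of 2.0 fragments, which took out a KO region of 969 bp. The direction at HLA-DRB1 is thus unsettled. Over all genes 81.9% were at least 2-fold lower and 6.22% at least 2-fold higher, so the direction at HLA-DM is that of most genes. HLA-DRA and HLA-DQA1 were marked in KO alone, where 29.8% of genes unmarked in WT gained a region, and none of the 4 genes marked in WT lost all its regions (31.5% of genes did). The median KO over WT ratio of covered bp, with 100 bp added to each value, was 1.6 over the 6 genes with a region and 0.175 over 16911 genes. Without regions on input the log2 median of the 6 turned from 0.68 to −0.27.

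H3K27me3 at HLA-DM differed in place as well as amount. In WT the mark covered 213 bp at 32940566 to 32940778, inside HLA-DMB 250 bp from its start site (−log10 q 2.56), and 109 bp of this also carried H3K4me1. KO had none, and JmjD-dead cells had 665 bp at 32944814 to 32945478 between the genes (−log10 q 3.0, rank 16522 of 37236). Thus HLA-DMA and HLA-DMB lost the mark in KO, as 51.6% of marked genes did, and HLA-DPA1 gained one, as 11.3% of unmarked genes did. None reached 500 bp in either list, where 20.7% of genes were at least 2-fold higher and 45.4% lower in KO. In JmjD-dead cells HLA-DMA and HLA-DMB had at least 2-fold more, as 63.6% of genes did, and HLA-DPB1 gained a region (29.2%). No gene of the group lost the mark there (21.0%) or had at least 2-fold less (7.82%). The JmjD-dead list was the longest of the 3 and came from the most fragments, 10449019 against 5026016 in WT and 6595820 in KO. The higher call at HLA-DMA and HLA-DMB did not hold. With the lists cut to equal length, JmjD-dead cells kept H3K27me3 at HLA-DPB1 alone and had 0 bp at HLA-DMA and HLA-DMB, which WT still marked. With a window of 2.5 kb or gene bodies alone, WT marked HLA-DMB and neither mutant marked any of the 10 genes. In these 3 settings the log2 median ratio of JmjD-dead to WT over the marked genes turned from 1.29 to −1.65. The part of depth in these lengths was not tested.

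With the KDM6A antibody, ARP1 had a region at 1 place in the whole group, between HLA-DMB and HLA-DMA. The HA list of the tagged line had 3 regions in the group, 1 of them at this place. The ARP1 WT region lay at 32944302 to 32944697, 3274 bp before the HLA-DMB start site, with a pileup of 10.0 tags, a −log10 q of 6.09 and rank 32257 of 90964. The HA region of the tagged line lay at 32944307 to 32944673, with a pileup of 13.0, a −log10 q of 5.34 and rank 24969 of 54338. All 367 bp of it lay in the KDM6A region, and the summits stood 47 bp apart. KARPAS had a region of 1057 bp there, at 32943964 to 32945020, with a pileup of 67.0, a −log10 q of 63.9 and rank 2549 of 55867. It held the whole of both ARP1 regions, its summit 34 bp from that of HA and 81 bp from that of KDM6A. Neither the ARP1 KO KDM6A list nor the untagged HA list had a region at HLA-DM, so the 3 lists with KDM6A or its tag had this site and both backgrounds lacked it. The KO KDM6A list had 0 regions from HLA-DRA to HLA-DPB1, and its nearest was 618.0 kb from HLA-DMA. Its lack of a region here is thus not particular to this site. It lies outside a window of 2.5 kb, which left 0 genes with KDM6A in ARP1 WT. Of the 90964 ARP1 WT KDM6A regions 3.95% showed this same pattern over the 5 lists, so it is uncommon but shared by 3593 regions. It was the 1 such region of the class II interval.

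**Figure D3:**
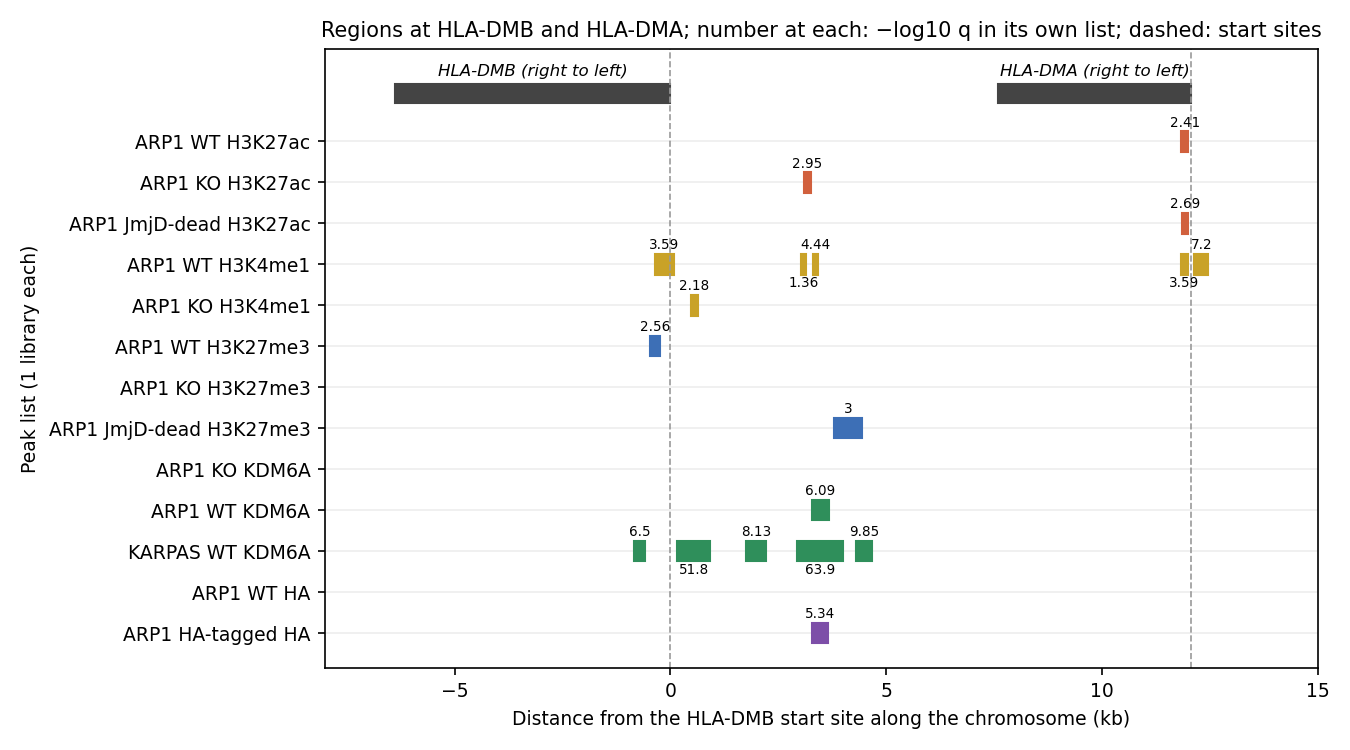
Listed regions (bars, to scale) at HLA-DMB and HLA-DMA in 13 lists of 1 library each, by distance in kb from the HLA-DMB start site along the chromosome, with the −log10 q of each region in its own list. The ARP1 WT KDM6A, KARPAS KDM6A and HA-tagged bars overlap between the genes (6.09, 63.9 and 5.34), and the ARP1 KO KDM6A and untagged HA rows are empty.

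At that site ARP1 WT cells also had an H3K4me1 region, at 32944321 to 32944440 (−log10 q 4.44), wholly inside the KDM6A region, and KO cells had none there. The KO H3K27ac region at 32944124 to 32944275 and the JmjD-dead H3K27me3 region stood on either side, inside or partly inside the KARPAS region and outside the ARP1 KDM6A region. In KDM6A WT against KO, HLA-DMA and HLA-DMB counted as gained, as 29.5% of genes without a KO region did. In HA-tagged against untagged, 6 genes did (HLA-DQA1, HLA-DQB1, HLA-DPA1, HLA-DPB1, HLA-DMA and HLA-DMB), through 3 regions, against 32.4% of genes. No gene of the group had a region in the KO KDM6A or untagged HA list to lose (17.7% and 35.1% of genes that had one). None reached 500 bp. Of all genes that did, 82.0% were at least 2-fold higher and 7.21% lower in WT than in KO KDM6A, and 60.2% higher and 20.4% lower in tagged than in untagged HA. The tagged library held 25265497 tags and the untagged 16624794.

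HLA-DOB, the beta chain of HLA-DO, had a region in 1 of 13 lists, KARPAS KDM6A. It lay inside the gene at 32815898 to 32816791, from 211 bp past the start site, with a pileup of 29.0, a −log10 q of 17.5 and rank 13137 of 55867. In ARP1 the gene was empty for all antibodies, and its nearest H3K27ac region stood 19.7 to 20.5 kb away, at the TAP genes.

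CD74, the invariant chain, had no H3K27ac, H3K27me3 or HA region, and its nearest H3K27ac region was 32.9 to 34.3 kb away in the 3 genotypes. H3K4me1 in WT stood inside the gene, at 150409796 to 150409991 and 150410160 to 150410474, both with a −log10 q of 4.44. In KO it stood elsewhere, the best region being 467 bp before the start site at 150413377 to 150413578 (−log10 q 6.48, rank 9042 of 80845). KDM6A was listed in KARPAS at 150412713 to 150413379, over the start site and all 300 bp of the promoter entry, with a pileup of 23.0, a −log10 q of 11.6 and rank 18671 of 55867. A weaker KARPAS region at 150410382 to 150410590 (−log10 q 3.57) overlapped the WT H3K4me1 region by 93 bp. ARP1 WT had no KDM6A region at CD74.

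**Figure D4:**
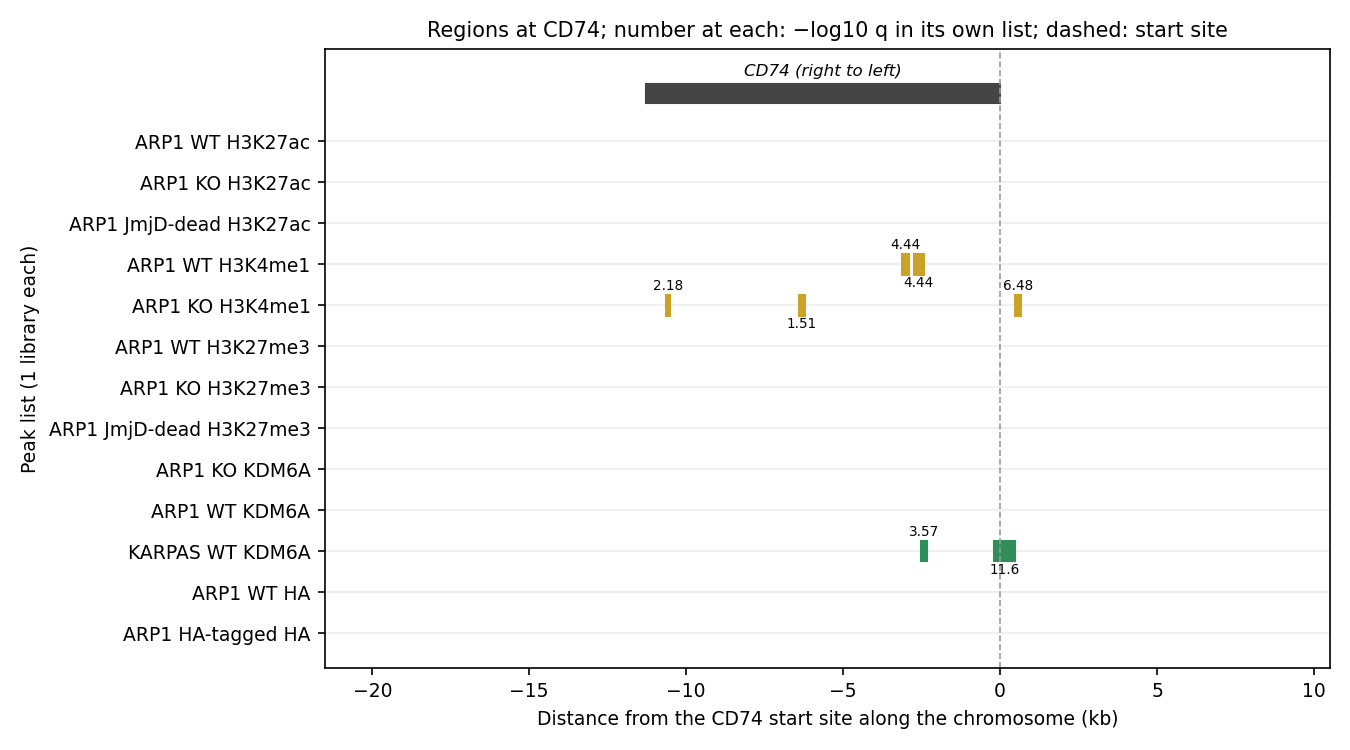
Listed regions (bars, to scale) at CD74 in 13 lists of 1 library each, by distance in kb from its start site along the chromosome, with the −log10 q of each. The KARPAS KDM6A bar of 11.6 spans the start site, where the ARP1 rows are empty, and the 3 KO and 2 WT H3K4me1 bars do not overlap each other.

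Between the lines, KDM6A marked 5 of the 10 genes in KARPAS and 2 in ARP1 WT. HLA-DPA1, HLA-DOB and CD74 were marked in KARPAS alone, as 44.6% of genes unmarked in ARP1 were, and no gene in ARP1 alone (27.4%). Covered length was at least 2-fold higher in KARPAS at all 4 genes with 500 bp or more (HLA-DMA, HLA-DMB, HLA-DOB and CD74), against 62.3% of 8747 genes, and lower at none (18.4%). At HLA-DMA and HLA-DMB alike it was 2937 bp in 5 regions against 396 bp in 1. The second strong KARPAS region there, at 32941191 to 32941954, had a −log10 q of 51.8, ranked 3636, and overlapped 88 bp of the HLA-DMB promoter entry. The median ratio was 6.12 over the 5 marked genes and 3.09 over 12979 genes. With lists cut to equal length both counts of marked genes stood. The KARPAS library held 37389280 tags and the ARP1 WT library 11898708, and no KARPAS background list was analysed here, so line and library cannot be told apart. H3K27ac was not profiled in KARPAS in the lists used here.

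The space between the genes held regions that the windows leave out. From 50 kb before HLA-DRA to 50 kb past HLA-DPB1, away from the windows of TAP1, TAP2, PSMB8, PSMB9 and BRD2, an HA region of the tagged line overlapped a KARPAS KDM6A region at 6 places, described here after their values were seen. One is the HLA-DM site, 5 lay outside the windows, and none overlapped an untagged HA region. With the windows of those 5 genes kept, there were 11 such places. Most of the places left out did overlap untagged HA, so the clean background of the 6 depends on leaving them out. How often such places occur over the genome was not examined. Of the 5 outside the windows, the strongest in KARPAS was between HLA-DRB1 and HLA-DQA1, 14.1 kb from HLA-DQA1. HA covered 32622609 to 32623352 there (−log10 q 16.1, rank 7463) and KDM6A 32622584 to 32624177 (−log10 q 61.2, rank 2742). Another stood 20.1 kb from HLA-DRB1, with HA at 32609969 to 32610413 (−log10 q 15.0) and KDM6A at 32610115 to 32610474 (−log10 q 8.13). It also overlapped an ARP1 WT H3K4me1 region. A site in BTNL2, 41.9 kb from HLA-DRA, was the 1 of the 6 that lay on ARP1 WT H3K27ac. ARP1 WT KDM6A was listed at none of these places but the HLA-DM site.

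**Figure D5:**
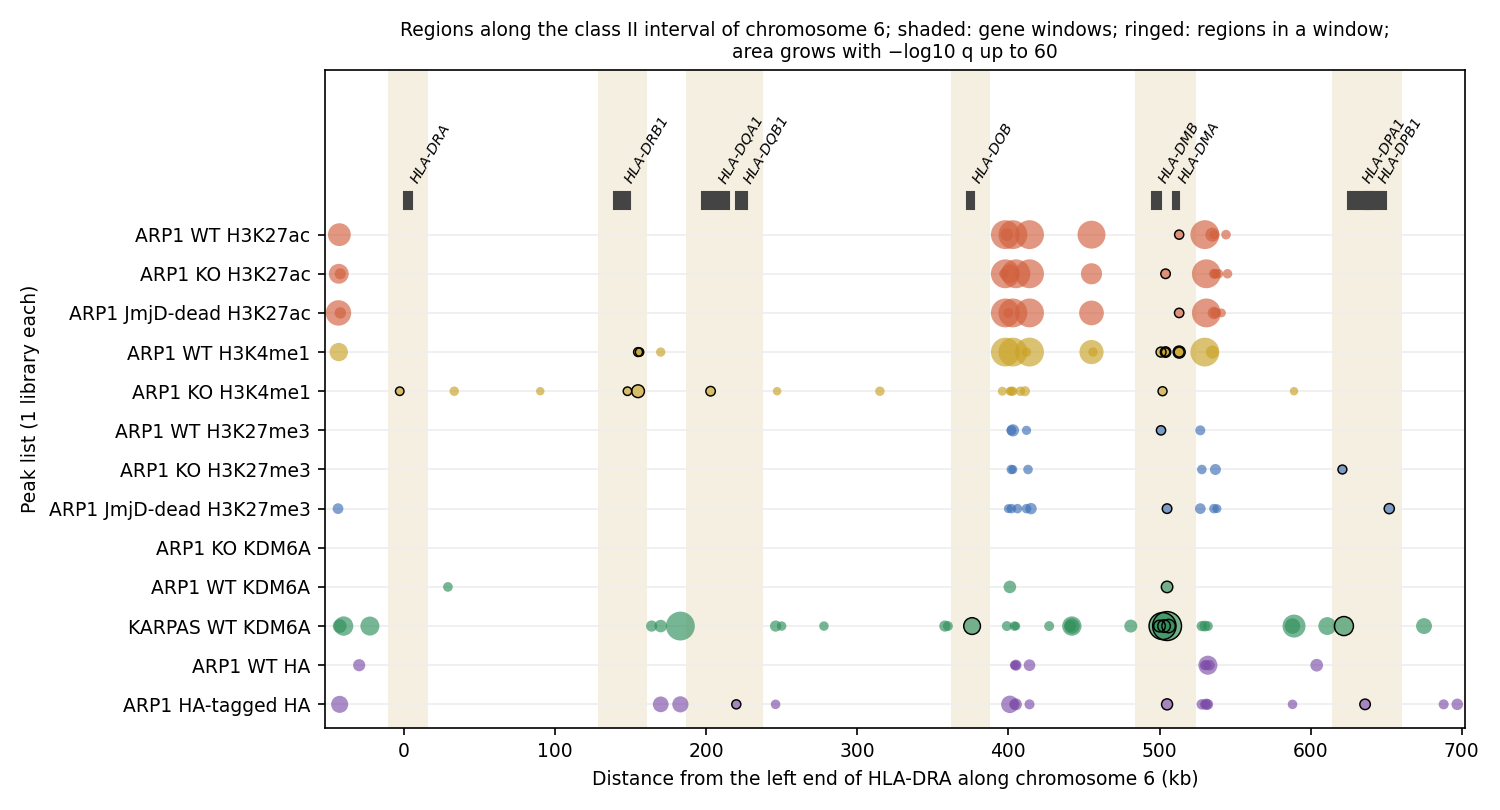
Midpoints of listed regions along the class II interval of chromosome 6, by distance in kb from the left end of HLA-DRA, in 13 lists of 1 library each. Circle area grows with −log10 q up to 60, shading marks the gene windows and rings mark regions inside them. ARP1 H3K27ac gathers around the TAP and PSMB genes and BRD2 (8 of 10 WT regions). So do WT H3K27me3 (4 of 5) and untagged HA (8 of 9), while KARPAS KDM6A is spread along the interval (29 regions).

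From HLA-DRA to HLA-DPB1 the H3K27ac lists held 10 (WT), 13 (KO) and 10 (JmjD-dead) regions, of which 8, 11 and 8 lay only in the windows of the class I processing genes TAP1, TAP2, PSMB8 and PSMB9 or of BRD2. H3K27ac regions per Mb were 15.4 in WT against 22.8 over the genome, 20.0 against 25.2 in KO and 15.4 against 24.5 in JmjD-dead cells. The H3K27me3 lists held 5 (WT), 6 (KO) and 9 (JmjD-dead) regions, of which 4, 5 and 8 lay only in those same windows. Per Mb these were 7.69, 9.23 and 13.9 against 5.73, 3.92 and 12.3 over the genome, so denser here in each genotype. The KDM6A lists held 0 (KO), 3 (ARP1 WT) and 29 (KARPAS) regions, or 0.0, 4.62 and 44.6 per Mb against 14.8, 30.0 and 18.4 over the genome. The HA lists held 16 (tagged) and 9 (untagged) regions, or 24.6 and 13.9 per Mb against 17.9 and 26.0. With the KDM6A antibody, ARP1 WT was thus sparser here than elsewhere and KARPAS denser. HA in the tagged ARP1 line was also denser here than elsewhere. The 3 ARP1 WT KDM6A regions came from a library of 11898708 tags, against 37389280 in KARPAS, and the part of depth was not tested.

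Of 19 other pathway genes 14 held H3K27ac, the same 14 in each genotype, which is close to the share over all genes (74.3% in WT), and no gene gained or lost it. The 5 without were CTSL and the HLA genes HLA-DOA, HLA-DRB5, HLA-DQA2 and HLA-DQB2. CIITA, the transactivator, had 10513 bp of H3K27ac in KO, 9740 bp in WT and 5669 bp in JmjD-dead cells. CTSS, a protease that trims CD74, had at least 2-fold more H3K27ac in JmjD-dead cells. It was 1 of 14 genes with at least 500 bp, where 3.08% of all such genes were higher and 3.35% lower. No other gene of the 19 passed 2-fold in either mutant (6.78% of all genes were higher and 3.33% lower in KO). H3K4me1 was at least 2-fold lower in KO at 12 of the 14 with at least 500 bp, close to the 81.9% of all genes, and higher at RFX5 and CTSS (6.22%). In KO it covered 35413 bp at CTSS and 7548 bp at RFX5. The KDM6A antibody also listed regions at both genes in KO, over 38821 bp and 2097 bp. Whether the H3K4me1 and KDM6A signals of KO cells there have a common source was not tested. HLA-DRB5, HLA-DQA2 and HLA-DQB2 were marked in KO alone, and RFXAP, NFYA, NFYB, MARCHF1 and SPPL2A in WT alone (29.8% and 31.5% of genes open to each change). H3K27me3 was lost in KO at RFXANK, CTSS and SPPL2A, 3 of the 8 marked in WT (51.6% of all marked genes), and gained at RFX5 and IFI30, 2 of the other 11 (11.3%). In JmjD-dead cells it was gained at RFX5, NFYB and IFI30, 3 of 11 (29.2%), and lost at none (21.0%). KDM6A in ARP1 was listed in WT and not in KO at CIITA, NFYC, CTSB, LGMN and SPPL2A, and in KO and not in WT at RFX5 (29.5% and 17.7% of genes open to each change). HA was listed in the tagged line alone at CIITA, RFX5, NFYC, CTSS, CTSB and LGMN, and in the untagged alone at CREB1 (32.4% and 35.1%). KARPAS added RFX5, RFXANK, NFYA and IFI30 to the 8 genes of ARP1 WT (44.6% of genes without a region there). Covered length was at least 2-fold higher in KARPAS at 6 of the 9 genes with at least 500 bp, against 62.3% of all genes. Among the 6 was CIITA, with 12100 bp against 1149 bp. It was at least 2-fold lower at MARCHF1, with 1302 bp against 7488 bp (18.4% of all genes).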

How the data were processed

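Lists of enriched regions from 16 human libraries, 1 per group, were used, and the 4 mouse libraries were not. Per the submitters' processing notes, reads were handled with Trimmomatic, Bowtie2 and MACS2 2.1.2 on GRCh38. Per the file headers, the caller was MACS 2.2.7.1 for ARP1 input, H3K27ac and H3K27me3 and 2.1.1.20160309 for the others, each library being called by itself, without a control file, with the local background switched off and a q-value limit of 0.05. Background was thus the library's own mean, so regions can also come from extra DNA copies or repeats. The deposited rows give a pileup signal, a fold enrichment (ratio) and −log10 p-values and q-values, which were the authors' and were used only within a list.

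Rows with the same coordinates were merged, and tied regions share a rank (by −log10 q, then fold). Presence needed 1 bp of overlap, and 50% was an alternative. Gene limits came from RefSeq GRCh38.p14 (19974 protein-coding genes). One marker gene is not reported here. With 1 library per group there was no test. A change was called for presence in 1 list alone, or for a difference of at least 2-fold in covered bp where a list had at least 500 bp. Median ratios added 100 bp to each value. All 10 genes are named, and other pathway genes where their presence or covered length differed. No gene qualified for the comparison of patterns over the 8 ARP1 histone lists, which asked for at least 500 bp in 4 lists. The members and lists were chosen with earlier results of these data known, and comparisons with short genes and between-gene regions were added after seeing the data. Python 3.11.15, numpy 2.4.6, pandas 2.3.3 and matplotlib 3.10.9 were used, and the overlap functions passed 5 of 5 steps on simulated data.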

Additional observations from a re-analysis of the deposited data

Results flagged for a closer look

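H3K27me3 at HLA-DMA and HLA-DMB moved in opposite directions in the mutants, from 213 bp in WT up to 665 bp in JmjD-dead cells and down to 0 bp in KO, at either gene. With lists cut to equal length both mutants stood at 0 bp at these genes, so the rise in JmjD-dead cells was lost. Both genes share these regions, both mutants share the WT list, and the difference was not tested. The KO input listed 149 bp at HLA-DRB1, where the other 2 inputs listed none. It came from a pileup of 2.0 fragments (−log10 q 1.48). The KO input was also the deepest of the 3, with 724630 fragments against 383824 in WT and 222942 in JmjD-dead cells.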

How the results depend on the processing

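Counts of genes with a region depended on the window and on the strength asked of a region, and not on asking 50% of a region to lie in the window, which left all 24 results within 1.5 times. With a window of 2.5 kb, H3K27ac in KO fell to 0 genes (log2 median ratio to WT −1.46), H3K27me3 to 1 gene in WT and 0 in either mutant (JmjD-dead log2 median −1.65 in place of 1.29, a reversal), KDM6A in ARP1 WT to 0 and HA in the tagged line to 3. The log2 medians were 0.02 for H3K4me1 and 3.3 for KARPAS over ARP1. In gene bodies alone the H3K27ac count in KO was 0 (log2 median −1.46), H3K27me3 counts were 1 in WT and 0 in either mutant (JmjD-dead log2 median −1.65, a reversal), KDM6A in ARP1 WT had 0 genes and HA in the tagged line 2. There H3K4me1 in KO had 3 genes with a log2 median of −0.55, and KARPAS had 3. With −log10 q of at least 5, H3K27ac and H3K27me3 had 0 genes in every genotype, H3K4me1 had 1 in WT and 2 in KO (log2 median 1.59), and HA in the tagged line had 2. With lists cut to equal length, H3K27me3 in JmjD-dead cells had 1 gene, HLA-DPB1, its rise at HLA-DMA and HLA-DMB was lost, and its log2 median reversed to −1.65. Without regions on ARP1 input the H3K4me1 log2 median was −0.27, and HLA-DRB1 had 254 bp in KO against 421 bp in WT in place of 1223 bp. Why the values moved was not tested beyond the fewer regions each setting keeps. Where no region was left in either list, no median was given. Weak regions of few fragments or tags set most of these counts. No paired analysis was possible because each group had 1 library.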
